A study of Mus musculus with 11 samples.

Results

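The sodium pump (Na+,K+-ATPase) subunit genes examined here were Atp1b1, Atp1b2 and Atp1b3, which encode beta subunits, and Fxyd5, which encodes a small regulatory partner of the pump. They were the 4 genes of these names among the 54532 genes of the deposited count table. The cells were CD8+ Tregs, a subset that restrains other lymphocytes, gated as CD8+CD44+Ly49+CD122+ and sorted from the spleen of wild-type mice of the C57BL/6J strain, and their RNA was sequenced in 11 libraries. These were 3 libraries from young males, 3 from young females, 2 from middle-aged males and 3 from middle-aged females. Young mice were 2 to 3 months old and middle-aged mice, which the labels call old, 10 to 12 months old. None of the groups carried a transgene or received a treatment. The replicates are described as biologically independent, but whether each library came from 1 mouse is not stated, so the spread between libraries may include technical spread. The question was whether a lower level of Atp1b1 in middle-aged cells was matched or offset by the other subunits. The genes were chosen by pump family and selected on the measured age difference of Atp1b1, which was known, so the age differences of these 4 genes are given as a description, without a test.

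The sodium pump moves sodium out of the cell and potassium into it, at the cost of ATP, and so keeps both ion gradients and the resting potential of lymphocytes and most other animal cells. Its alpha subunit carries the ion path and the ATP site. Its beta subunit, a glycoprotein that crosses the membrane once, is needed for the alpha subunit to fold, leave the endoplasmic reticulum and reach the plasma membrane. FXYD proteins bind the assembled pump and tune its kinetics, and Fxyd5 (dysadherin) is a member of this family that is also known for its effect on cell adhesion.

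The 2 beta subunit genes with substantial counts are shown by the 250 bases before their annotated start sites. The age groups lay apart in Atp1b1 and overlapped in Atp1b3, and a difference between the 2 genes was not tested. The sequences are those of RefSeq on GRCm38.p6, 5′ to 3′ on the strand of the gene. Capitals mark matches, on either strand, to GGGCGG (the GC box) or CCAAT. The window of Atp1b1 was chr1:164458356-164458605, minus strand, and that of Atp1b3 was chr9:96364432-96364681, minus strand.
Atp1b1: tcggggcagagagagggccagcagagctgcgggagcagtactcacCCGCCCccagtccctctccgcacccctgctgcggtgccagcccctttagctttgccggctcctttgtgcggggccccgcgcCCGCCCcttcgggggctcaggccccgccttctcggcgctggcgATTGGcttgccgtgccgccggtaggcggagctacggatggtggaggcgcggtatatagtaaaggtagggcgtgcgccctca
Atp1b3: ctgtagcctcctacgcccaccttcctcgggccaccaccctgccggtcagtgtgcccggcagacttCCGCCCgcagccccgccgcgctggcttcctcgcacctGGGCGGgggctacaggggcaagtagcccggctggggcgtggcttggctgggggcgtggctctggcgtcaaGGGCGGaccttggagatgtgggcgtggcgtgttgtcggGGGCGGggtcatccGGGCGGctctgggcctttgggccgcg
The Atp1b1 window had 70.4% G and C bases, 2 matches to GGGCGG and 1 to CCAAT, and that of Atp1b3 had 73.6% G and C bases and 5 matches to GGGCGG. Neither held TATAAA or TGACGTCA (the cAMP response element). Over 32851 windows of the same length, the share with a match was 32.7% for GGGCGG, 33.8% for CCAAT, 12.4% for TATAAA and 1.55% for TGACGTCA, and the median share of G and C bases was 52.4%. A second annotated start of Atp1b3, with the window chr9:96363716-96363965, and the single window of Fxyd5, chr7:31042332-31042581, matched none of these motifs. These matches describe letters only and say nothing about binding.

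Total counts ranged from 6135736 to 24394532 per library, so that a count of 0 allows up to 0.119 to 0.543 CPM (counts brought to a common library size with edgeR's TMM factors) for a gene. Of the 4 genes, 3 passed the filter on low counts and Atp1b2 did not. All 12 listed markers of CD8 T cells and CD8+ Tregs were detected, and their summed level was 8469 to 15212 CPM among young libraries and 8338 to 13499 CPM among middle-aged ones. Middle-aged female 2 stood apart from the other middle-aged libraries in markers of myeloid cells, at 2664 CPM against at most 328 CPM. It was also above them in markers of plasma cells (367 against at most 164 CPM) and of CD4 T cells (67.2 against at most 33.6 CPM). Results that rest on it are given without it as well where these were computed. In bulk RNA, fewer expressing cells and less RNA per cell cannot be told apart.

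Atp1b1 (ENSMUSG00000026576, beta 1 subunit) lies on the minus strand of chromosome 1, at 164437109 to 164458355 of GRCm38. Its level was 84.3, 109.6 and 91.2 CPM in young males and 135, 132 and 115 CPM in young females. In middle-aged males it was 8.99 and 25.1 CPM, and in middle-aged females 20.4, 33.9 and 22.1 CPM. All 5 middle-aged libraries were below all 6 young libraries. Among all 13129 genes tested, the age groups did not overlap in 1.31%, and 0.297% were lower in every middle-aged library than in any young one. The groups of Atp1b1 were also apart within males and within females, as were those of 15.9% and 7.3% of all genes. Young libraries had a mean of 111 ± 20.7 CPM (SD, n = 6) and middle-aged libraries one of 22.1 ± 9.0 CPM (SD, n = 5). The edgeR log2 fold change of middle-aged over young was -2.39 (SE 0.29, 95% interval -3.02 to -1.76), a level 5.24-fold lower with an interval of 3.39 to 8.10. A log2 fold change this low or lower was found in 48 genes, or 0.366% of those tested.

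The spread of Atp1b1 was unequal between the age groups. The coefficient of variation was 18.6% in young and 40.7% in middle-aged libraries, and the lowest value, that of middle-aged male 1, was well below the other middle-aged values. The 3 young females were all above the 3 young males, and the sexes of the young groups were apart, in either direction, in 4.47% of all genes tested. Group means were 95 ± 13.1 CPM in young males, 127 ± 10.8 CPM in young females, 17.1 ± 11.4 CPM in middle-aged males and 25.5 ± 7.37 CPM in middle-aged females (SD, n = 2 for middle-aged males and n = 3 for each other group). The log2 fold change with age was -2.47 (SE 0.56) in males fitted alone and -2.31 (SE 0.33) in females fitted alone. Without middle-aged female 2 it was -2.53. The last 617 bases of Atp1b1, at 164437109 to 164437725, overlap Nme7 on the other strand. Since strand-specific counting is not stated, reads there cannot be assigned to one gene with certainty. Nme7 itself had 47 to 277 counts per library and a log2 fold change of -0.06 (SE 0.31).

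**Figure D1:**
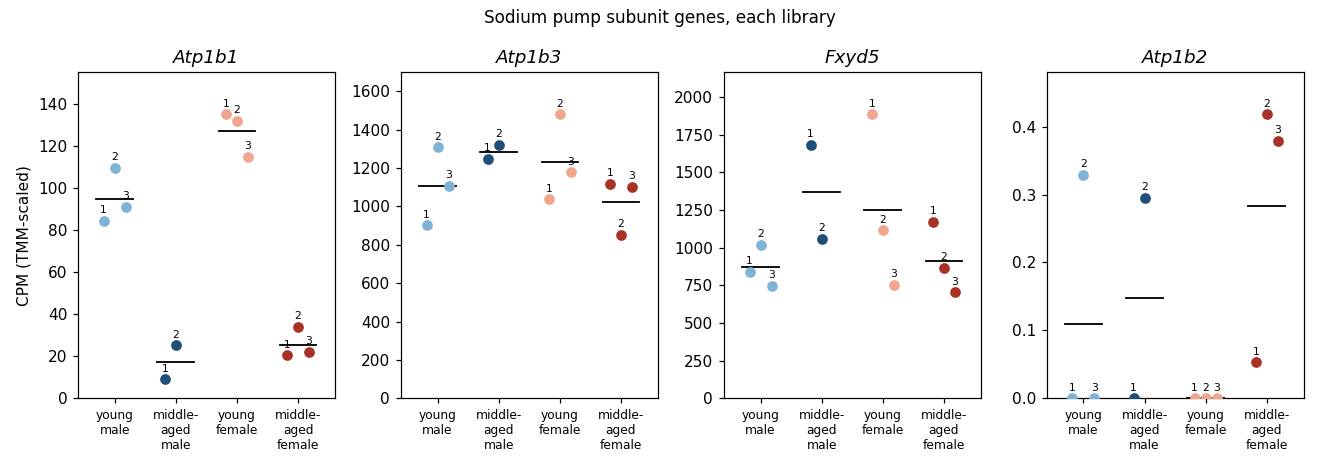
Level of Atp1b1, Atp1b3, Fxyd5 and Atp1b2 in each of the 11 libraries, 1 panel per gene. The y axis is CPM on a linear scale with its own range in each panel, numbered points are libraries by sex and age group, and lines are group means; of the 4 genes, only in Atp1b1 do the age groups lie apart, at 84.3 to 135 CPM in young and 8.99 to 33.9 CPM in middle-aged libraries.

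Atp1b3 (ENSMUSG00000032412, beta 3 subunit; minus strand of chromosome 9, 96332655 to 96364442) was the most abundant of the beta subunit genes. It was at 901, 1307 and 1107 CPM in young males and at 1036, 1479 and 1177 CPM in young females. In middle-aged males it was at 1247 and 1322 CPM, and in middle-aged females at 1118, 852 and 1101 CPM. The age groups overlapped over most of their range. Young libraries had a mean of 1168 ± 204 CPM (SD, n = 6) and middle-aged libraries one of 1128 ± 179 CPM (SD, n = 5), and the log2 fold change was -0.05 (SE 0.21, 95% interval -0.50 to 0.40). As a percent of the young level, this interval runs from -29.2% to 31.9%. Per kilobase of gene length, Atp1b3 ranked 113 of the 13129 genes tested, at the 99.1 percentile, against rank 2709 and the 79.4 percentile for Atp1b1. Its coefficient of variation was 17.5% in young and 15.9% in middle-aged libraries. The direction was not shared by the sexes, with a log2 fold change of 0.22 (SE 0.34) in males fitted alone and -0.26 (SE 0.30) in females fitted alone, and each was smaller in size than its standard error. With all libraries but middle-aged female 2, the lowest of the 11, it was 0.04, and without young female 2, the highest, it was 0.05, so the sign of the difference rests on single libraries.

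Atp1b2 (ENSMUSG00000041329, beta 2 subunit, first known from glial cells; minus strand of chromosome 11, 69599736 to 69605942) was barely detected. Among the young libraries, young male 2 had 7 counts and the other 5 had 0. Among the middle-aged libraries, middle-aged male 2 had 5 counts, the females had 1, 10 and 8, and middle-aged male 1 had 0. Counts were thus found in 1 of 6 young and 4 of 5 middle-aged libraries, and the highest level was 0.418 CPM. This is at or near what a count of 0 allows in the shallowest libraries, so no fold change is given. Atp1b4, the remaining beta gene of the family, had 0 counts in all libraries.

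The beta subunit genes were compared on one scale as CPM per kilobase of gene length. On that scale, for young and middle-aged libraries in turn, Atp1b1 was at 36.1 ± 6.71 and 7.18 ± 2.92, and Atp1b3 at 489 ± 85.4 and 472 ± 75 (SD, n = 6 and n = 5). The difference of Atp1b1 between the age groups, 28.9 CPM per kilobase, was 5.91% of the young level of Atp1b3, which is less than the SD of Atp1b3 between young libraries. With the sexes pooled, the mean of Atp1b3 was lower in middle-aged libraries, but its log2 fold change turned from -0.05 to 0.04 without middle-aged female 2. In males its mean was higher, at 538 ± 22.3 (SD, n = 2) in middle-aged against 463 ± 84.9 (SD, n = 3) in young libraries, and in females it was lower, at 429 ± 62.3 against 515 ± 94.6 (SD, n = 3 each). The difference in males was larger than that of Atp1b1 in males, which was at 30.8 ± 4.24 in young and 5.54 ± 3.71 in middle-aged libraries, but less than the SD of Atp1b3 between young males. The interval of Atp1b3 over both sexes is wider than the gap on either side, so a rise of the size of the gap was not detectable with these libraries. Atp1b2 added at most 0.102 CPM per kilobase in any library, far below the gap.

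The summed level of the beta genes was 405, 583 and 493 CPM per kilobase in young males, 478, 662 and 530.1 in young females, 525 and 562 in middle-aged males, and 475, 368 and 468 in middle-aged females. The age groups overlapped. Young libraries had a mean of 525 ± 89.3 (SD, n = 6) and middle-aged libraries one of 479 ± 73.1 (SD, n = 5), a difference of -8.68%, and the log2 difference was -0.13 (SE 0.14). Without middle-aged female 2, whose sum was the lowest of all, it was -0.04. In males alone the log2 difference was 0.15 (10.1% of the young mean) and in females alone -0.34 (-21.5%).

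The make-up of the sum differed more than the sum. Atp1b1 was 6.0% to 9.17% of the summed beta level in young libraries and 0.556% to 2.99% in middle-aged libraries, with means of 6.92% ± 1.17 and 1.59% ± 0.880 (SD, n = 6 and n = 5). The age groups did not overlap in this share. The level of Atp1b3 was 9.90 to 15.7 times that of Atp1b1 in young libraries and 32.4 to 179 times in middle-aged libraries. Because Atp1b1 enters this share and this ratio, they restate its difference and are no independent measure.

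**Figure D2:**
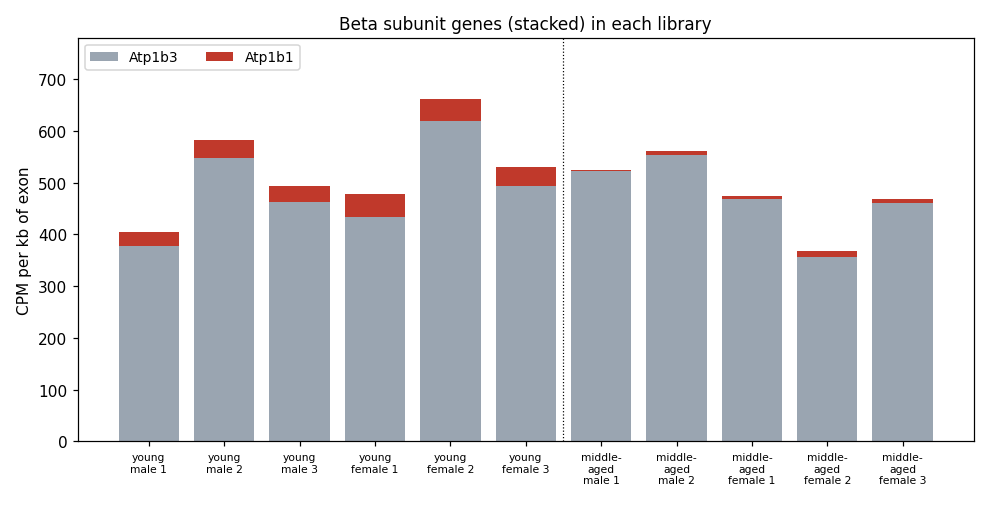
Atp1b3 and Atp1b1 stacked in each library. The y axis is CPM per kilobase of gene length from 0, and a dotted line parts young from middle-aged libraries; the stacks overlap at 405 to 662 and 368 to 562, while the Atp1b1 part narrows from 6.0% to 9.17% of the sum in young libraries to 0.556% to 2.99% in middle-aged ones.

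Fxyd5 (ENSMUSG00000009687; minus strand of chromosome 7, 31032722 to 31042481) was abundant and varied widely. It was at 839.9, 1019 and 748 CPM in young males and at 1883, 1116 and 754 CPM in young females. In middle-aged males it was at 1680.4 and 1059 CPM, and in middle-aged females at 1169, 867 and 703 CPM. The age groups overlapped almost fully, with young female 1 the highest and middle-aged female 3 the lowest of all libraries. Young libraries had a mean of 1060.0 ± 429 CPM (SD, n = 6) and middle-aged libraries one of 1096 ± 373 CPM (SD, n = 5). The log2 fold change was 0.05 (SE 0.31, 95% interval -0.63 to 0.73), which as a percent of the young level is an interval from -35.4% to 65.9%. Per kilobase, Fxyd5 ranked 238 of the genes tested, at the 98.2 percentile, and this rank depends on the length used, since the 4192 bases counted as its length hold 648 coding bases.

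The values of Fxyd5 also differed between replicate numbers. The 4 libraries numbered 1 held 839.9 to 1883 CPM, those numbered 2 held 867 to 1116 CPM, and the 3 numbered 3 held 703 to 754 CPM. Between age groups of the same number, mean log2 CPM differed by 0.16, -0.15 and -0.10 for numbers 1, 2 and 3. What the replicate numbers stand for is not given, and their part in these values was not tested. In males both middle-aged libraries were above all 3 young libraries, a separation found in 15.9% of all genes tested, and the log2 fold change in males fitted alone was 0.66 (SE 0.37). In females the groups overlapped and it was -0.44 (SE 0.40). Relative to the summed beta level per kilobase, Fxyd5 was at 0.493 ± 0.226 in young and 0.544 ± 0.153 in middle-aged cells (SD, n = 6 and n = 5).

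**Figure D3:**
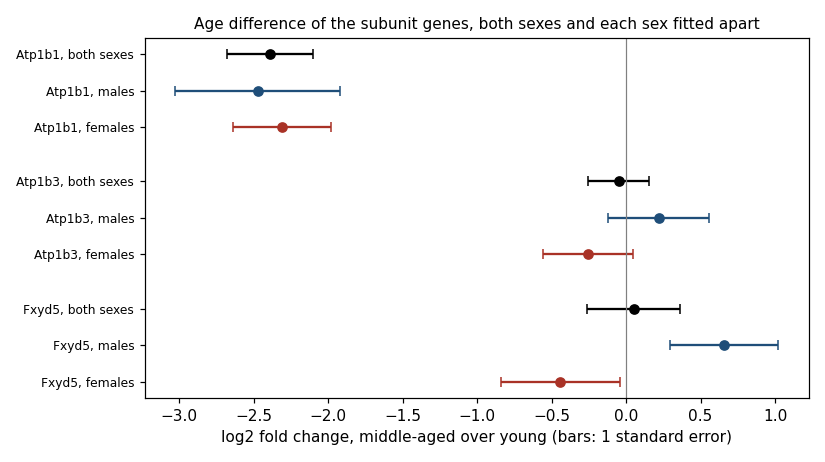
Log2 fold change of middle-aged over young cells for Atp1b1, Atp1b3 and Fxyd5 in both sexes, in males alone and in females alone, on a log2 x axis with 0 marked. Points are edgeR estimates, and bars are 1 standard error; Atp1b1 lies between -2.47 and -2.31 in all 3 fits, while Atp1b3 and Fxyd5 lie on opposite sides of 0 in males and females.

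Other genes of the pump family were listed as well, and those that can be given here were too low to test. Fxyd4 reached at most 26 counts in a library and Fxyd7 at most 15, both being FXYD regulators. Fxyd2 reached 9 counts. Fxyd1, Fxyd3 and Atp4b, the beta gene of the gastric proton pump, reached at most 1 count, and Atp4a, Atp12a and Fxyd6 had 0 in all libraries. None of these genes, and not Atp1b2, reached in any library the lowest count of Atp1b1, which was 189. These are levels of transcripts, and the protein subunits were not measured here.

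Sex was not used to choose the genes and was tested for each of them. The log2 difference of females over males was 0.49 for Atp1b1 (SE 0.27, 95% interval -0.10 to 1.08), with an adjusted p of 1.00 by edgeR. It was -0.06 for Atp1b3 (SE 0.21, interval -0.51 to 0.39) and 0.02 for Fxyd5 (SE 0.31, interval -0.66 to 0.70), both with an adjusted p of 1.00 by edgeR. None of the 3 genes was called, against 5 of all genes tested (0.0381%).

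The difference between the sexes in the age effect was tested as an interaction. For Atp1b1 the log2 fold change in females minus that in males was 0.16 (SE 0.57, 95% interval -1.09 to 1.41), and it turned on which middle-aged male was kept, being -0.40 without middle-aged male 1 and 1.12 without middle-aged male 2. For Atp1b3 it was -0.48 (SE 0.40, interval -1.36 to 0.40), and for Fxyd5 it was -1.11 (SE 0.56, interval -2.34 to 0.12). All 3 had an adjusted p of 1.00 by edgeR. Of all genes tested, edgeR called 0 for the interaction and 158 (1.2%) had an unadjusted p under 0.05; DESeq2 called 0, with 317 under 0.05, and limma voom called 0, with 1071. The opposite signs of Fxyd5 in males and females were therefore not distinguished by the test.

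Other routes of sodium and potassium across the membrane were examined as a list of 38 carriers and channels, of which 33 were tested. EdgeR called 0 of them, against 0.0229% of all genes tested, and 1 had an unadjusted p under 0.05, beside 2.99% of all genes tested. DESeq2 also had 1 under 0.05 and limma voom 4. The shares of all genes for these tools were not computed, so their counts have no background. The log2 fold change was above 0 in 19 genes and below 0 in 14. The median was 0.08, beside 0.0028 over all genes tested. The gene with the smallest p was Kcnj8, which encodes the pore subunit of an ATP-sensitive potassium channel. It was at 27.1, 29.3 and 36.9 CPM in young males, 13.2, 26.4 and 31.6 CPM in young females, 51.4 and 75.8 CPM in middle-aged males, and 81.7, 49.7 and 83.9 CPM in middle-aged females. All middle-aged libraries were above all young libraries, as in 1.01% of all genes tested. The log2 fold change of Kcnj8 was 1.35 (SE 0.28), with an adjusted p of 0.285 by edgeR. Over all 13129 genes tested, edgeR called 3 by age, DESeq2 112 and limma voom 138. DESeq2 gave an adjusted p of 0.00184 and limma voom one of 0.00696, and both called the gene; over the libraries left out in turn, edgeR's adjusted p was 0.234 to 0.891. Kcnk5, a background potassium channel, had a log2 fold change of 1.65 (SE 0.88), Kcna2, a voltage-gated potassium channel, one of -1.62 (SE 1.27), and Slc8b1, the mitochondrial sodium and calcium exchanger, one of 0.67 (SE 0.59), each with an adjusted p of 1.00 by edgeR.

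The other P-type ATPases, the enzyme family of the alpha subunit, numbered 31, of which 21 were tested and edgeR called 0. The log2 fold changes were positive in 7 and negative in 14 genes, with a median of -0.03. Among the genes with the smallest p were the phospholipid flippases Atp8b4 (0.46, SE 0.41) and Atp10d (-0.22, SE 0.35) and the plasma membrane calcium pump Atp2b4 (0.50, SE 0.55). Of 19 regulators of the pump and of cation carriers, 12 were tested and edgeR called 0, with 7 positive and 5 negative values and a median of 0.06. The 4 with the smallest p were the kinases Sgk3 (-0.42, SE 0.27), Prkca (0.29, SE 0.33) and Oxsr1 (0.27, SE 0.35) and the secreted proteoglycan Agrn (-0.67, SE 0.89). In both lists, 0 genes had an unadjusted p under 0.05 in edgeR or DESeq2. Over all genes tested, edgeR called 0.0229% and had 2.99% at an unadjusted p under 0.05. In lists this short, a count of 0 is near these shares. Limma voom had 1 among the P-type ATPases. The shares of DESeq2 and limma voom over all genes tested were not computed.

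**Figure D4:**
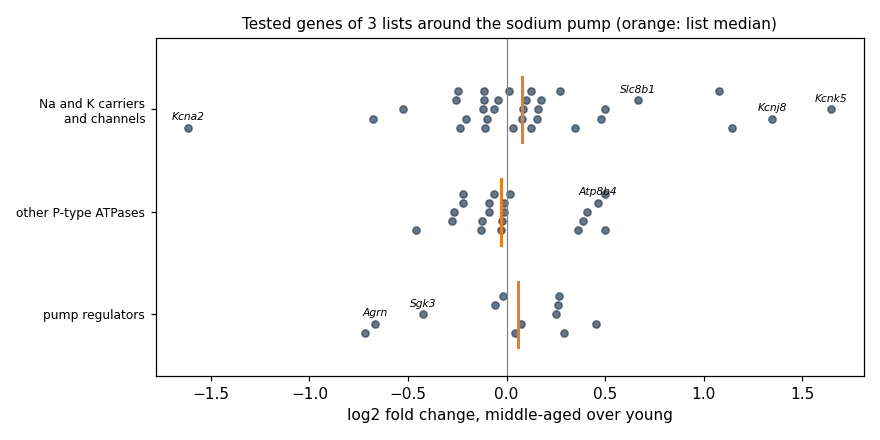
Log2 fold change of middle-aged over young cells for each tested gene of the 3 lists, with 1 row per list and the median of each list as an orange line. The x axis is the log2 fold change by edgeR; list medians lie between -0.03 and 0.08, and Kcnj8 at 1.35 has the smallest p.

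The genes most like each of the 3 tested genes were sought among 8331 genes with a mean of at least 10 CPM, by Pearson's r in log2 CPM over the 11 libraries. These values describe libraries that share age groups, depth and preparation. Atp1b1 was most like Smc4, a condensin subunit (r = 0.919), Gzma, granzyme A (0.897), Gm6637, a predicted gene (0.881), Klra4, a Ly49 receptor gene (0.880), and Ncr1, an activating receptor of NK cells (0.878), where 99% of genes had an r under 0.656. Their log2 fold changes with age were between -2.33 (Ncr1) and -0.70 (Smc4). Since the age groups of Atp1b1 lie apart, genes picked by this r tend to share its age difference, so these negative values are no independent result. Reads of Klra4 may be shared with other Klra genes of near-identical sequence. With the mean of each sex and age group taken away, the genes most like Atp1b1 were instead Nusap1 (0.948), Rrm2 (0.918) and Cdk1 (0.897), which act in the spindle, in deoxynucleotide synthesis and in the cell cycle. Their own log2 fold changes with age were 0.0032, 0.38 and 0.05.

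Atp1b3 was most like Bbc3 (r = 0.948), Ankrd54 (0.885) and Tdrp (0.877), and with group means taken away Gatb (0.950), Enoph1 (0.942) and Fyttd1 (0.934). Among the genes most like Fxyd5 were Gabarap (0.972) and Imp3 (0.968), and with group means taken away Pole4 (0.990) and Znhit2 (0.983). The r under which 99% of genes fell was far higher for Fxyd5, at 0.905, than for Atp1b3, at 0.685, so that 1% of genes had an r over 0.905 with Fxyd5. Between the subunits, with group means taken away, r was -0.01 for Atp1b1 and Atp1b3, -0.23 for Atp1b1 and Fxyd5, and -0.11 for Atp1b3 and Fxyd5. With so few libraries these values are imprecise, and whether the subunits vary together was not tested.

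Listed markers of NK cells were compared beside Atp1b1. Of 9 listed NK genes, 8 had a lower and 1 (Klre1) a higher mean in middle-aged cells, and none was at 0 throughout. Of all 13129 genes tested, 6513 had a negative log2 fold change. EdgeR called 0 of the 9, beside 0.0229% of all genes tested. The list is a choice of markers and not the whole NK program. It lacks Klrk1, Klrc1, Klrc2, Klrc3 and Fcgr2b, which the paper reported as higher in middle-aged cells. The paper reported Klrb1a, Klrb1b and Klra4 as lower. Ncr1 had a mean of 70.4 CPM among young libraries and of 18 CPM among middle-aged ones, with an adjusted p of 0.660 by edgeR. The summed NK level was 746 to 1239 CPM among young libraries and 404 to 1097 CPM among middle-aged ones, which overlapped, with a log2 ratio of -0.57, or -0.76 without middle-aged female 2. That library had the highest NK sum and the highest Atp1b1 of the middle-aged group. The ratio of Atp1b1 to the NK sum was 0.0928 to 0.132 in young and 0.0140 to 0.0622 in middle-aged libraries, and did not overlap, but it holds Atp1b1 itself and is no independent measure. Klrb1b had a log2 fold change below the -2.39 of Atp1b1, at -2.92. Its level was low, with a mean of 4.47 CPM among young libraries and 1.18 CPM among middle-aged ones. Ncr1 (-2.33) and Gzma (-2.20) came close to Atp1b1 in fold change, but their age groups overlapped. Ncr1 was at 25.1 to 120 CPM in young and 1.81 to 48.8 CPM in middle-aged libraries. Gzma was at 215 to 472 CPM in young and 23.5 to 335 CPM in middle-aged libraries. Negative values smaller in size were those of Cd244a (-1.80), Tyrobp (-0.88), Klrb1c (-0.78), Itga2 (-0.55) and Fcer1g (-0.37). Klre1, at a mean of 222 CPM among young libraries and 350.1 CPM among middle-aged ones, makes up much of the sum. The part of NK markers in the level of Atp1b1 was not tested. The log2 ratio of the summed markers was -0.09 for CD8 T cells and CD8+ Tregs, 0.53 for B cells, 0.56 for plasma cells, 1.87 for myeloid cells, -2.68 for erythroid cells and platelets and -1.22 for CD4 T cells. Without middle-aged female 2 these ratios were, in the same order, -0.02, 0.30, 0.29, 1.11, -3.05 and -1.64. The last pair of sums was carried by a few genes. Globin genes such as Hbb-bs (-2.85) had negative log2 fold changes. Those of the platelet genes Pf4 (1.74) and Ppbp (0.95) were positive. Their peaks of 5.22 and 7.60 CPM came from middle-aged female 2, while young libraries reached at most 0.637 and 1.27 CPM. Fold changes of Pf4 and Ppbp without that library were not computed, so their sign may rest on it. Of the CD4 T cell markers, Izumo1r had a mean of 41.1 CPM among young libraries and 16.0 CPM among middle-aged ones. In the same order, Cd4 was at 6.98 and 7.39 CPM and Foxp3 at 0.752 and 3.31 CPM. Erythroid and platelet markers summed to 27.8 to 156 CPM among young libraries and 1.05 to 31.5 CPM among middle-aged ones.

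**Figure D5:**
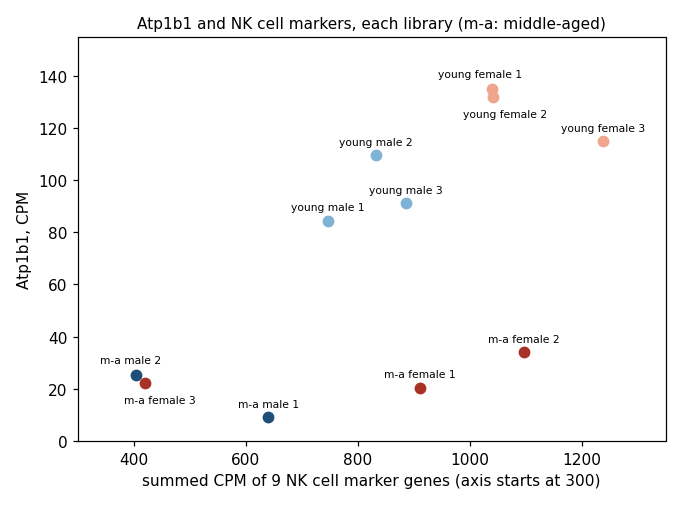
Atp1b1 against the summed level of 9 NK cell markers, both in CPM on linear axes, with 1 labelled point per library, coloured by sex and age group. Young libraries lie at 84.3 to 135 CPM of Atp1b1 and middle-aged libraries at 8.99 to 33.9 CPM over overlapping ranges of the NK sum, 746 to 1239 and 404 to 1097 CPM.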

How the data were processed

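The authors deposited counts for 54532 Ensembl genes, as whole numbers, in 11 libraries of sorted CD8+ Tregs, with no normalization and with GRCm38 coordinates. RNA was purified on columns and libraries were made with a SMARTer kit for small RNA amounts; a company ran the sequencing and analysis. The submitters' processing notes name kallisto and mm10, without versions or roles. Strandedness, the treatment of reads shared by paralogs and the test are not given in the sources used here. All 11 count columns were used and 0 were left out.

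The age comparison used R 4.3.3 and edgeR 4.0.16 with TMM factors, filterByExpr by age (13129 genes left at a minimum of 10 counts and a total of 15), robust glmQLFit and glmQLFTest with sex as covariate, and Benjamini-Hochberg adjustment over all genes at 0.05. The interaction was tested in a fit with that term. Levels are TMM-scaled CPM; correlations used log2 CPM with a prior count of 2. CPM per kilobase divides by the deposited gene length. Totals were 6135736 to 24394532 counts; the limit of a 0 was taken as 3 counts and covers counting error only. DESeq2 1.42.0 and limma 3.58.1 (voom with quality weights) were alternatives, with other scaling, filters, covariates, a replicate block and each library left out. The steps were tested on simulated data.

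Named were the 4 subunit genes, the other pump genes with at least 10 counts in a library, from each further list the called genes and up to 4 with the smallest p, and the 3 or 5 genes most like each subunit gene; other genes named were listed markers, untested pump genes and an overlapping gene. The 4 genes and all lists were chosen with earlier results of these data known. Some genes that these rules named, and results that need them, are not reported here. RefSeq promoter windows (GRCm38.p6) had an entry for Atp1b1, Atp1b3 and Fxyd5.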

Additional observations from a re-analysis of the deposited data

Results flagged for a closer look

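Of 14 groups of values checked, 2 had a library far from the rest of its age group by Dixon's criterion, which chance meets in about 1 group in 20. Fxyd5 in young female 1 was 1883 CPM, where the next young library was at 1116 CPM and the lowest at 748 CPM; without it the log2 fold change of Fxyd5 with age was 0.31 in place of 0.05. The share of Atp1b1 in the summed beta level in young female 1 was 9.17%, where the other young libraries were at 6.0% to 7.04%. The total count of that library was 8421396, among the lowest.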

How the results depend on the processing

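The age difference of Atp1b1 was -2.49 to -2.21 on the log2 scale over 10 alternatives and -2.64 to -2.18 with each library left out in turn. Those of Atp1b3 and Fxyd5 were -0.12 to 0.05 (positive without middle-aged female 2 or young female 2) and -0.19 to 0.31 with each library left out; in males alone they were 0.22 and 0.66, in females alone -0.44 for Fxyd5, and the summed beta level differed by 0.15 in males alone. Fxyd5 without young female 1 gave 0.31 and without middle-aged male 1 -0.19. The sex difference of Fxyd5 was -0.22 in limma voom, and it ran from -0.24 to 0.26 with each library left out, that of Atp1b3 from -0.16 to 0.0091, and the interaction of Atp1b1 from -0.40 (without middle-aged male 1) to 1.12 (without middle-aged male 2); the causes were not tested, and none was called.

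The number of genes called by age was 3, and 17 with any gene of at least 1 count, 112 in DESeq2, 138 in limma voom, 19 under the replicate block, 2 with the block within sex, 5 without a sex term, and 0 in males or females alone by edgeR (202 and 277 at an unadjusted p under 0.05), where fewer libraries were fitted. With each library left out it was 1 to 4, and 1 without young male 2, young female 2, young female 3, middle-aged female 1 or middle-aged female 3. Among the carriers and channels, DESeq2 and limma voom each called 1, Kcnj8. Other scaling shifted the median log2 fold change of all genes from 0.0028 to no lower than -0.0214.

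The replicate numbers were not shown to pair the libraries, but the data held a hint of it. Same-numbered libraries of different groups deviated together with r from 0.0250 to 0.558, over 0.1 in 13 of 15 pairs. Pairs with different numbers had r from -0.508 to 0.397, over 0.1 in 8 of 30 pairs. Of the 11 libraries, 9 correlated best with one of their own number. The deviations were taken from group means and sum to 0 within each group, so these pairs are not independent of each other. TMM factors also rose with the replicate number in every group. They were 0.855 to 0.931 for number 1, 0.994 to 1.04 for number 2 and 1.11 for number 3. The part of this in the correlations was not tested. Under the replicate block the age differences of Atp1b1, Atp1b3 and Fxyd5 were -2.49, -0.04 and -0.05, and with the block within sex -2.48, -0.06 and -0.02. The sex difference could not be estimated with the block within sex. Where 1 middle-aged male was left, it was assumed to vary like the other libraries. A count of 0 in the shallowest library allows up to 0.543 CPM, which limits what can be said of Atp1b2.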
